A study of Mus musculus with 8 samples.

Results

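The urokinase receptor and plasminogen system was described through 9 genes: the receptor gene Plaur, the plasminogen activator genes Plau and Plat, the plasminogen gene Plg, and the serpin genes Serpine2, Serpini1, Serpinf2, Serpinf1 and Serpinb2. They were found as the array probes carrying one of these gene names, which gave 11 probes for 9 genes among 30139 genes named on the array. RNA came from whole hippocampus of adult C57BL/6 mice, 3 to 6 months old, that had been through behavioural tests. Every mouse carried Ctcf loxP/loxP, that is, 2 copies of Ctcf with recombination sites in the gene. Knockout mice (CKO) carried Camk2a-Cre as well, a Cre recombinase driven by the promoter of a gene of excitatory forebrain neurons, and control mice (WT) carried no Cre, so an effect of Cre itself cannot be told apart from that of Ctcf loss. Each genotype had 3 RNA pools of 3 mice, and the pools of one number matched in sex and age: pool 1 had 2 females and 1 male of 19 to 23 weeks, pool 2 had 3 females of 18 to 19 weeks, and pool 3 had 3 males of 15 to 17 weeks. Pool 1 of each genotype was measured on 2 arrays, and 8 arrays on 2 slides were read in all.

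Plasminogen is a circulating and locally made zymogen that tissue-type plasminogen activator (tPA, from Plat) and urokinase (uPA, from Plau) cut into plasmin, a protease of fibrin and extracellular matrix. The urokinase receptor (uPAR, from Plaur) is a lipid-anchored surface protein of the Ly6/uPAR fold that holds urokinase at the cell surface. Serpins are suicide inhibitors: protease nexin-1 (Serpine2), neuroserpin (Serpini1) and plasminogen activator inhibitor 2 (Serpinb2) act on the activators, and alpha2-antiplasmin (Serpinf2) acts on plasmin. Pigment epithelium-derived factor (Serpinf1) has the serpin fold but does not inhibit proteases. In hippocampus tPA is known as a product of neurons and microglia that is linked to synaptic plasticity and to activation of pro-BDNF.

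The differences between genotypes rest on Plaur and Serpinf2, so their probes are shown first, with that of Plat, whose probe spans the end of the coding sequence. The Plaur and Serpinf2 probes start at bases 1072 and 2118 of their transcripts, and the first 30 of 60 bases are given. The Plat probe starts at base 1742, and it is shown up to the TGA stop codon, in capitals.
Plaur: ccctcgtgttgtcttctttggacctcagtt
Serpinf2: cctttagctcccaagactcttttgtaaagt
Plat: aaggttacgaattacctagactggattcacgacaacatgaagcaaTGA

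RefSeq promoter sequence (GRCm38.p6) was at hand for 6 of the 9 genes, and the 250 bases before the start are shown for the 2 genes that differed most between genotypes. That of Plaur is chr7:24462233-24462482, plus strand, and that of Serpinf2 is chr11:75439502-75439751, minus strand. Capitals mark matches to 3 motifs searched on both strands: the AP-1 motif TGANTCA, the GC box GGGCGG bound by Sp1, and the CTCF core, written as CC, any 3 bases, AG, any 2 bases and GGC.
Plaur promoter: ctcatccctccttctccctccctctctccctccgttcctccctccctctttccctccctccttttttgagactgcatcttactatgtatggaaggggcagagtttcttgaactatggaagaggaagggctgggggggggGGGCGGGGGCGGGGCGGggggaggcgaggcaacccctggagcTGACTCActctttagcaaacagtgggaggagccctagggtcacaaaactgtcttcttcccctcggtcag
Serpinf2 promoter: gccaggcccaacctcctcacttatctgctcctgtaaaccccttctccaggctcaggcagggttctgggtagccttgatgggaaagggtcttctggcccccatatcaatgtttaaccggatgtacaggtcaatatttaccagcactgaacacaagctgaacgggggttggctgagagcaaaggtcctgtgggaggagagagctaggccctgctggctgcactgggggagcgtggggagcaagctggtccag
The Plaur window held 1 AP-1 match, TGACTCA, starting 69 bases before the start, and 3 GC boxes at 111, 105 and 100 bases, of which the last 2 share a base. The Serpinf2 window held no match to these letters or to the CRE motif TGACGTCA. Of 32851 RefSeq promoter windows of this length, 6.75% held an AP-1 match, 32.7% a GC box, 7.17% a CTCF core match and 1.55% a CRE match. Among the other genes Serpinb2 held an AP-1 match and Serpine2 held GC boxes and a CTCF core match. A match is a string of letters and not a measured site.

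The share of spots well above background ran from 59.2% to 66.0% over the arrays, whose number limits the precision. The second array of WT pool 1 was the dimmest: the correlation between the arrays of WT pool 1 was 0.9535, and between those of CKO pool 1 it was 0.9888. Ctcf signal lay between 0.83 and 1.12 in WT pools and between 0.05 and 0.18 in CKO pools (difference -0.87, SE 0.13; limma adjusted p = 0.143, or 0.0292 with the pool number as a block), in log2 units relative to the 75th percentile of the array. All values below are on this scale, where a negative level lies below that percentile. The tissue label was checked with marker lists: markers of excitatory neurons, inhibitory neurons, astrocytes, oligodendrocytes and microglia were each well above background on at least 1 array. The lists of choroid plexus and activity-regulated genes spread most between pools and are given beside the results. Relative to the WT mean, the excitatory neuron list lay between -0.12 and 0.07 in WT pools and between -0.35 and -0.16 in CKO pools. Of its 8 markers 7 were measured, 3 of them higher in CKO, and its part in the results was not tested.

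A gene counted as measured if all 4 arrays of one genotype or the other read it well above background, and 6 of the 9 did: Plaur, Plat, Serpine2, Serpini1, Serpinf2 and Serpinf1. Plau, Plg and Serpinb2 were not well above background on any array. The 9 genes were chosen by name as one system and selected on the CKO minus WT differences of these same pools, so these differences are a description and carry no test. Of the 6 genes, 5 were higher in CKO pools and 1 was lower. The median difference was 0.17, against -0.0032 over the 18335 genes tested. None of the 6 passed an adjusted p of 0.05 by limma without a block, where 0.0273% of all genes passed. Blocked by pool number, Plaur and Serpinf2 were past it, where 0.562% of all genes were. These calls come from the values on which the genes were selected and are no support for them. Serpinf2 also passed the background filter through its CKO arrays alone, with 2 of 4 WT arrays well above background. In 3 of the 6 genes the CKO pools did not overlap the WT pools, as in 11.4% of all genes.

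**Figure D1:**
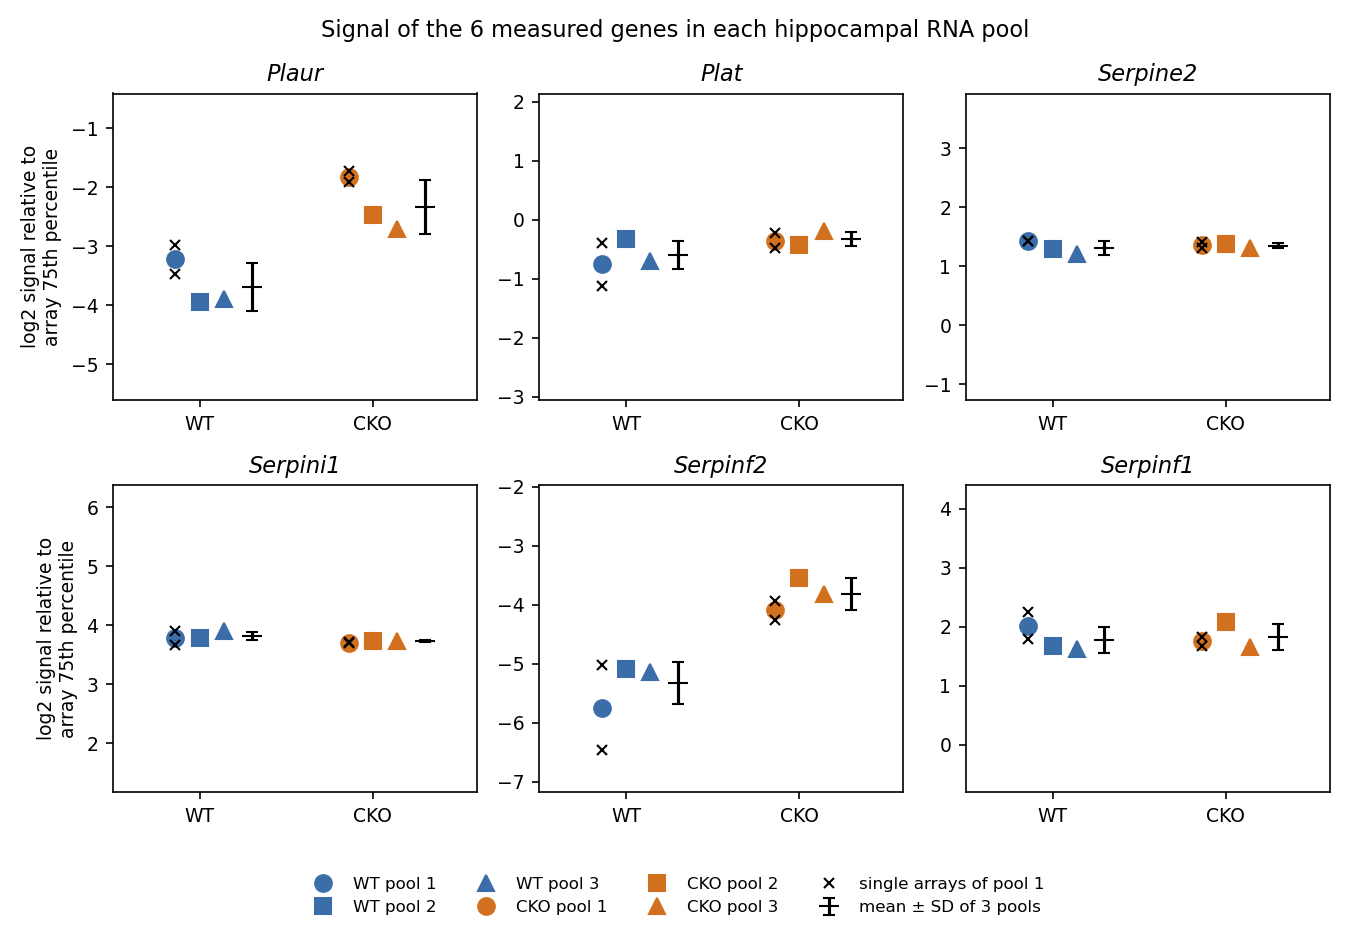
Log2 signal relative to the array 75th percentile (vertical axis, the same height in every panel) of the 6 measured genes in WT (blue) and CKO (orange) pools; circles, squares and triangles are pools 1, 2 and 3, crosses the single arrays of pool 1, bars the mean ± SD of 3 pools. The CKO pools of Plaur (-2.70 to -1.82) and Serpinf2 (-4.09 to -3.54) lie above all WT pools. In the other 4 genes the groups lie close together, with a gap of 0.04 in Serpini1. The Serpinf2 points include WT values below detection.

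Plaur, the urokinase receptor gene, was 2.56-fold higher in CKO than in WT hippocampus. Its signal was -3.22, -3.94 and -3.90 in WT pools 1, 2 and 3, a mean of -3.69 ± 0.40 (SD, n = 3). It was -1.82, -2.47 and -2.70 in CKO pools 1, 2 and 3, a mean of -2.33 ± 0.46. The groups did not overlap: the lowest CKO pool lay 0.52 over the highest WT pool, and pool 1 was the highest in both genotypes. The difference was 1.36 (SE 0.30).

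Within one pool number the Plaur difference was 1.41, 1.47 and 1.19 for pools 1, 2 and 3, so the mixed pool, the pool of females and the pool of males differed in the same direction. The arrays of slide 1 alone gave 1.51 and those of slide 2 alone 1.23. The single arrays of pool 1 read -3.46 and -2.98 in WT and -1.92 and -1.72 in CKO. Without the second array of WT pool 1 the difference was 1.44. The probe was well above background on all 8 arrays. The list of border macrophage and leukocyte markers, cells known to carry uPAR, was also highest in pool 1, at 0.42, -0.14 and -0.28 in WT pools and 0.53, -0.02 and -0.12 in CKO pools relative to the WT mean. Of its 7 markers 6 were measured, 4 of them higher in CKO, with Cd163 not above background, and its part in the Plaur result was not tested. Differences as large as that of Plaur, in either direction, were seen in 50 of the 18335 genes.

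Plat, the tPA gene, was the activator gene with measurable signal. WT pools 1, 2 and 3 stood at -0.76, -0.34 and -0.70 (mean -0.60 ± 0.23), and CKO pools at -0.36, -0.43 and -0.20 (mean -0.33 ± 0.12). The pools overlapped, since CKO pools 1 and 2 lay below WT pool 2. The difference was 0.27 (SE 0.16). It was 0.40, -0.09 and 0.51 within pool numbers 1, 2 and 3. It was 0.03 within slide 1 and 0.58 within slide 2. The arrays of WT pool 1 read -0.39 and -1.13, and without the lower, second one the Plat difference was 0.15. As large a difference was seen in 18.5% of genes.

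The activity-regulated marker list, of immediate early and late response genes such as Fos and Nptx2, differed strongly between CKO pools. Its mean relative to the WT mean was 2.61, -0.23 and 2.17 in CKO pools 1, 2 and 3, with WT pools between -0.14 and 0.22, and 7 of 7 measured members had a higher mean in CKO. Within pool numbers 1, 2 and 3 Plat differed by 0.40, -0.09 and 0.51, and Plaur by 1.41, 1.47 and 1.19. Plat ran from -0.76 to -0.34 in WT pools and from -0.43 to -0.20 in CKO pools. The part of this list in either result was not tested.

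Plau, the urokinase gene, gave no value above background in either genotype. Its processed signal lay between -7.64 and -6.03 on the 8 arrays, and 4 of these were surrogate values that the scanner software sets for spots at background. Plg, the plasminogen gene, stood at surrogate values on all 8 arrays, between -7.68 and -6.39. Serpinb2, the gene of plasminogen activator inhibitor 2, likewise stood at surrogates on all 8, between -7.71 and -6.42. No fold is given for these 3 genes. The lowest signals of spots well above background ran from -5.51 to -4.25 over the arrays, and signals below that range give only a bound.

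Serpinf2, the alpha2-antiplasmin gene, was 2.84-fold higher in CKO by the signals as read, some of which lay below detection in WT. WT pools 1, 2 and 3 stood at -5.74, -5.09 and -5.14 (mean -5.32 ± 0.36, n = 3). CKO pools stood at -4.09, -3.54 and -3.82 (mean -3.82 ± 0.28). No CKO pool overlapped the WT pools, and the gap between the groups was 1.00. As read, the difference was 1.51 (SE 0.27), and 33 of 18335 genes had one as large. This size, the gap and the rank include WT values below detection, and the size moved with the background correction.

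The Serpinf2 probe was dim and was read above background on 4 of 4 CKO arrays but 2 of 4 WT arrays, so the WT mean includes values below detection. The difference was 1.65, 1.55 and 1.32 within pool numbers 1, 2 and 3, and 1.31 and 1.77 within slides 1 and 2. The arrays of WT pool 1 read -5.01 and -6.47, and without the second array the difference was 1.26. With another background correction (normexp) the difference was 0.90, and in the authors' value table it was 1.91. The low mean of WT pool 1 came from its second array, whose lowest signal well above background was -4.25. Its first array, at -5.01, was no lower than WT pools 2 and 3 (-5.09 and -5.14). The choroid plexus marker list had its lowest value in WT pool 1, -1.19 relative to the WT mean. Its other WT pools stood at 0.41 and 0.78 and its CKO pools at 0.95, 0.95 and 0.41. All 8 of its 8 markers were measured. Without WT pool 1 the Serpinf2 difference was 1.30, and the part of choroid plexus tissue in it was not tested.

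**Figure D2:**
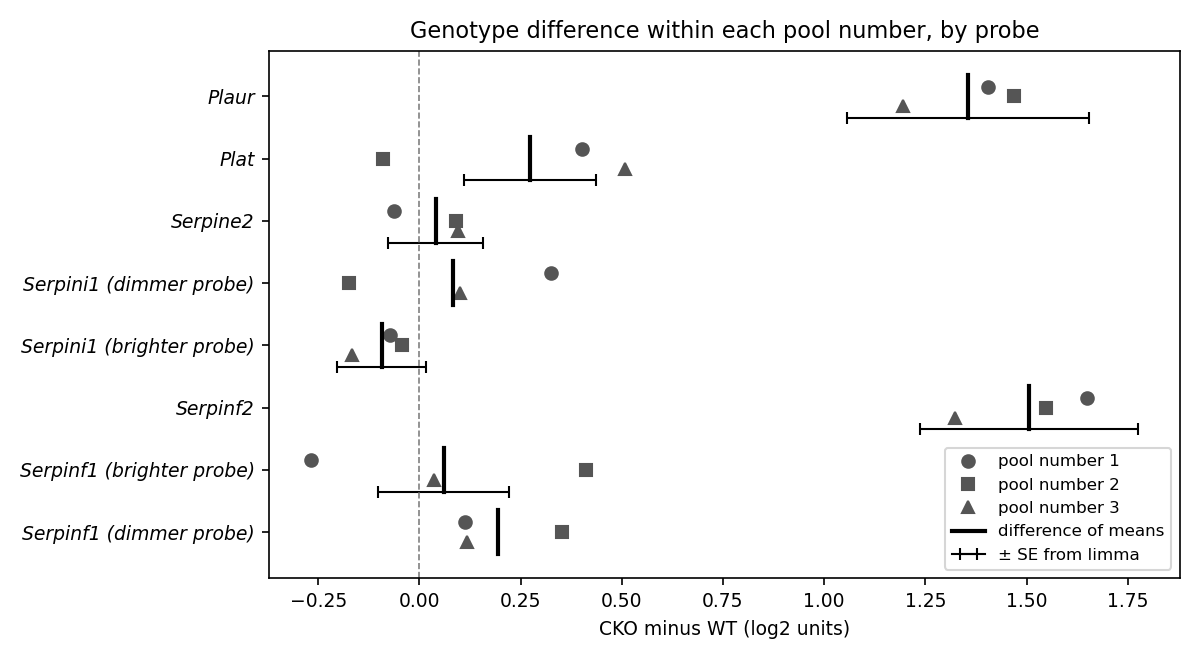
CKO minus WT difference in log2 units (horizontal axis) for the 8 probes well above background, within pool numbers 1 (circle), 2 (square) and 3 (triangle); vertical bars are differences of means and horizontal bars the limma SE, for the probe that gives the gene its value. Plaur lies between 1.19 and 1.47 and Serpinf2 between 1.32 and 1.65, while the points of Plat, Serpine2 and Serpinf1 (brighter probe) fall on both sides of 0. The Serpinf2 points include WT values below detection.

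Serpinf1, whose product is pigment epithelium-derived factor, lies beside Serpinf2 on chromosome 11 and was read by 2 probes. By its brighter probe WT pools stood at 2.02, 1.67 and 1.62 (mean 1.77 ± 0.22) and CKO pools at 1.75, 2.08 and 1.66 (mean 1.83 ± 0.22). The pools overlapped fully, with a difference of 0.06 (SE 0.16) that was -0.27, 0.41 and 0.04 within pool numbers 1, 2 and 3. The dimmer probe gave a difference of 0.19 (0.11, 0.35 and 0.12 within pool numbers). The sign of the brighter probe's difference turned within slide 2 (-0.19) and without WT pool 3 or CKO pool 2.

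The other measured neighbours of these genes were read to see whether a difference extended along the chromosome; they were chosen as the nearest 2 measured genes on each side after the values of Plaur and Serpinf2 were seen. Next to Serpinf2 the differences were 0.10 (SE 0.14) for Smyd4, -0.13 (SE 0.14) for Wdr81 and 0.41 (SE 0.15) for Mir22hg, host of a microRNA, with limma adjusted p of 0.999, 0.999 and 0.779. A long noncoding gene model, Gm35391, overlaps Serpinf2. Next to Plaur on chromosome 7 the differences were -0.0060 for Smg9, 0.26 for Kcnn4, -0.20 for Cadm4 and 0.0073 for Zfp428, with SE from 0.13 to 0.25, and for each the adjusted p was 0.999. Pools overlapped in all of these neighbours but Mir22hg.

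Serpine2, the protease nexin-1 gene, had nearly the same signal in both genotypes. WT pools stood at 1.43, 1.29 and 1.21 (mean 1.31 ± 0.11) and CKO pools at 1.37, 1.38 and 1.31 (mean 1.35 ± 0.04). The difference was 0.04 (SE 0.12), within the spread of the pools, and its sign turned with median scaling (-0.01), within slide 2 (-0.0071) and without WT pool 3 (-0.0099). A difference of this size or more was seen in 82.6% of genes.

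Serpini1, the gene of neuroserpin, an inhibitor of tPA that neurons secrete, was read by 2 probes that differed in sign. The brighter probe gave 3.78, 3.78 and 3.90 in WT pools (mean 3.82 ± 0.07) and 3.71, 3.74 and 3.74 in CKO pools (mean 3.73 ± 0.02). Every CKO pool lay below every WT pool, with a gap of 0.04, and the difference was -0.09 (SE 0.11). The dimmer probe gave 0.44, 0.67 and 0.28 in WT pools and 0.76, 0.49 and 0.38 in CKO pools, which overlapped, with a difference of 0.08. The separation of pools was thus not seen in both probes, and the mean of both probes differed by -0.0049.

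The rest of the system was taken from 5 lists of 84 genes, of which 63 were measured. Of these, 45 were higher and 18 lower in CKO pools, with a median of 0.11, and 0 passed the limma threshold over all genes, with 6 at an unadjusted p under 0.05, where 5.48% of all genes were. Blocked by pool number 1 was past it, Timp1. In 5 of the 63 the CKO pools were all higher than the WT pools and in 4 all lower, where 5.71% and 5.64% of all genes did so.

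Among other inhibitors, 6 of 9 were measured, 4 higher and 2 lower (median 0.19), and none passed. A2m, the gene of the broad protease trap alpha2-macroglobulin, differed by 0.76 (SE 0.31, adjusted p = 0.867) with 2 of 4 WT arrays well above background. The Kunitz-type inhibitor genes Spint1 and Spint2 differed by 0.34 (SE 0.26) and 0.21 (SE 0.17), each with an adjusted p of 0.999.

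Of 24 binding partners and clearance receptors 21 were measured, 14 higher and 7 lower (median 0.07), and none passed. The plasminogen docking genes Anxa2 and S100a10 differed by 0.19 (SE 0.13) and 0.09 (SE 0.14), and the plasminogen receptor gene Plgrkt by -0.11 (SE 0.16). Lrp1, an endocytic receptor that clears serpin-protease complexes, differed by 0.22 (SE 0.13) and the integrin gene Itgb5 by 0.26 (SE 0.15), each with a limma adjusted p of 0.999. The matrix glycoprotein gene Thbs1 differed by 0.68 (SE 0.35, limma adjusted p = 0.983), with 3 of 4 WT arrays well above background. Itgam, the integrin partner of uPAR on microglia and leukocytes, stood at -0.02 (SE 0.25). The microglia marker list itself lay between -0.08 and 0.14 in WT pools and between -0.15 and 0.29 in CKO pools, with 6 of 6 markers measured and 3 of them higher. In bulk tissue fewer cells of a type and less RNA per cell cannot be told apart.

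Of 13 other serine proteases 9 were measured, 7 higher and 2 lower (median 0.25), and none passed. F12, the contact-phase factor XII gene, was -3.52, -3.79 and -3.82 in WT pools and -4.27, -4.19 and -4.43 in CKO pools, a difference of -0.58 (SE 0.21, adjusted p = 0.774) with no overlap. F10, the gene of coagulation factor X, differed by 0.67 (SE 0.27, adjusted p = 0.853) and Hpn, of the membrane protease hepsin, by 0.32 (SE 0.19, adjusted p = 0.999). The neuronal proteases neurotrypsin (Prss12) and neuropsin (Klk8) stood at 0.31 (SE 0.18) and 0.13 (SE 0.19).

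Substrates, downstream proteases and their inhibitors had 20 of 28 genes measured, 16 higher and 4 lower (median 0.11). Timp1, the gene of a secreted metalloprotease inhibitor, stood at -3.00, -3.39 and -3.51 in WT pools and at -1.80, -0.47 and -2.08 in CKO pools. The groups did not overlap, and the difference was 1.85 (SE 0.39) with adjusted p = 0.252 by limma and 0.0268 with the block. The other inhibitors of this family, Timp2, Timp3 and Timp4, stood at 0.03, 0.12 and -0.04. Mmp2, the gelatinase A gene, differed by 0.69 (SE 0.27, adjusted p = 0.849), had 3 of 4 WT arrays well above background, and did not overlap between groups. Bdnf, whose precursor plasmin cuts, stood at 0.03, 0.24 and -0.11 in WT pools and at 1.55, 0.04 and 0.82 in CKO pools, a difference of 0.75 (SE 0.33, adjusted p = 0.916). CKO pool 2, where the activity-regulated list was at -0.23, was the one within the WT range. The part of this list in the Bdnf difference was not tested.

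**Figure D3:**
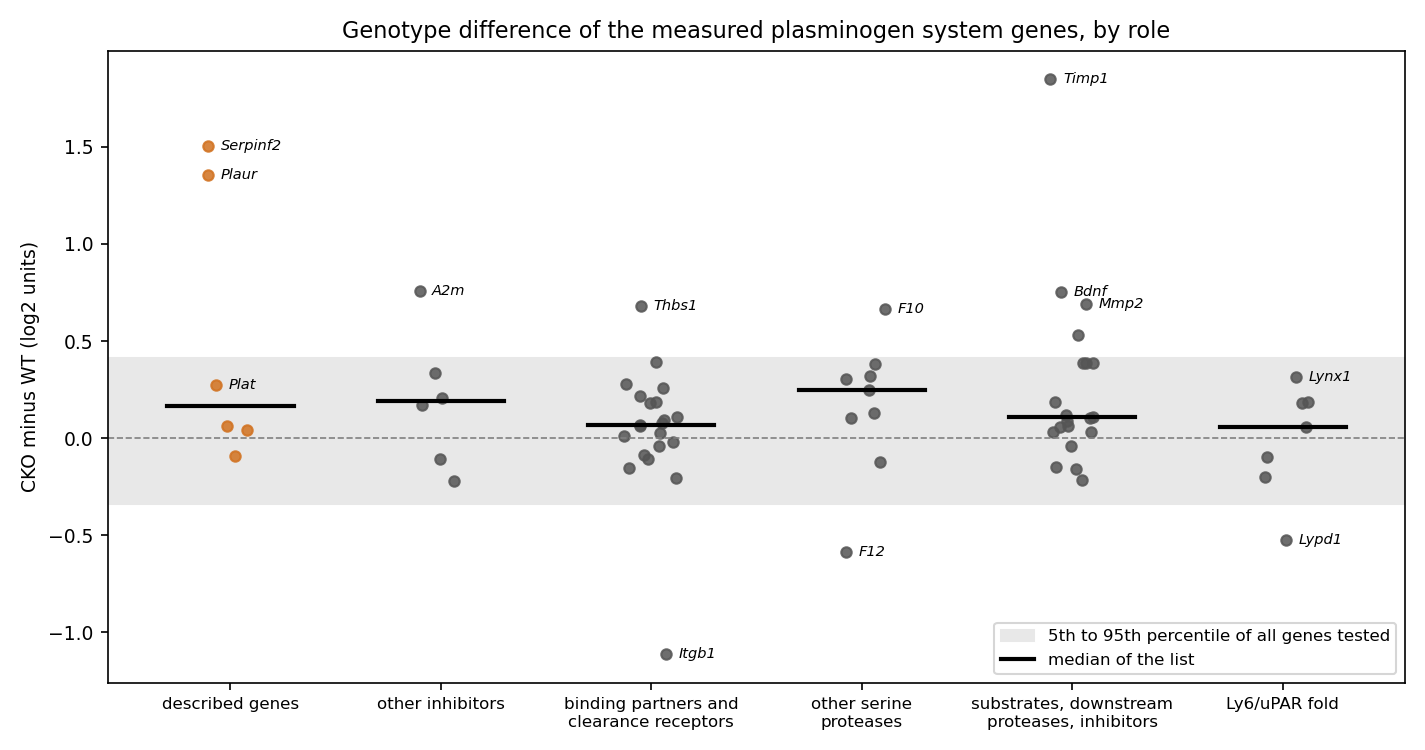
CKO minus WT difference in log2 units (vertical axis) of the 6 described genes (orange) and 63 further measured genes of the system by role; each point is a gene, bars are list medians, and the grey band runs from the 5th to the 95th percentile of all genes tested (-0.34 to 0.41). Plaur and Serpinf2 lie above the band, as do Timp1, A2m, Bdnf, Mmp2, F10, Thbs1 and Pdgfd, and F12, Lypd1 and Itgb1 lie below it. Of these, Serpinf2, A2m, Mmp2, Thbs1 and Pdgfd were not well above background on every WT array. The place of Itgb1 rests on CKO pool 2, without which its difference was 0.16.

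Proteins of the Ly6/uPAR fold, to which the urokinase receptor belongs, had 7 of 10 genes measured, 4 higher and 3 lower (median 0.05), and none passed. Lypd1 stood at 0.63, 1.29 and 1.21 in WT pools and at 0.47, 0.55 and 0.53 in CKO pools, a difference of -0.53 (SE 0.18, adjusted p = 0.757) with no overlap. Lynx1, a modulator of nicotinic receptors, differed by 0.31 (SE 0.14, adjusted p = 0.916) and Ly6h by -0.20 (SE 0.12, adjusted p = 0.999). The difference of 1.36 in Plaur was larger in size than any of these 7, but Plaur was selected on that difference, so this order is no support.

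The genes whose profile over the 6 pools was most like that of Plaur, among 8937 named genes with a range of at least 0.5, were Tec, a kinase gene (r = 0.9945), the endotoxin co-receptor gene Cd14 (0.9896), the chemokine gene Ccl2 (0.9893), the myelin gene Mobp (0.9876) and Dmrt3 (0.9852). These r hold the genotype difference, which was 0.42 for Tec, 1.07 for Cd14, 0.37 for Mobp and 0.58 for Dmrt3. No difference is given for Ccl2, since its signal in WT pools 2 and 3 (-5.72 and -6.01) was not well above background and gives only a bound, and its r rests in part on those values. For deviations from the genotype means r was 0.9748, 0.9585, 0.9489, 0.9527 and 0.9854 for Tec, Cd14, Ccl2, Mobp and Dmrt3. These genes were picked for the highest r among 8937 genes over the same 6 pools. The r of deviations reuses those values, so it is not independent of that choice and is no test of likeness beyond genotype. The 6 pools also share arrays, slides and scaling across genes. The oligodendrocyte list, which holds Mobp, lay between -0.09 and 0.05 in WT pools and between 0.15 and 0.34 in CKO pools, with 6 of 6 markers higher, and its part in the Plaur result was not tested.

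The nearest profiles to the other genes, picked in the same way, were Mettl25 (0.9977) and Morn1 (0.9864) for Serpinf2, Hs3st2 (0.9773) and Ube2ql1 (0.9738) for Plat, and Ube2c (0.9925) and Hcst (0.977) for Serpinf1. The r for Serpinf2 rest in part on WT values below detection, since 2 of 4 WT arrays read it well above background. For Serpine2 they were Ppp2r3d (0.9895) and Mmp14 (0.9886), and for Serpini1 Tmem151b (0.9864) and Zfp512b (0.9832). Mmp14, which encodes a membrane metalloprotease, had its highest values in pool 1 within each genotype (-3.24 in WT and -3.76 in CKO).

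**Figure D4:**
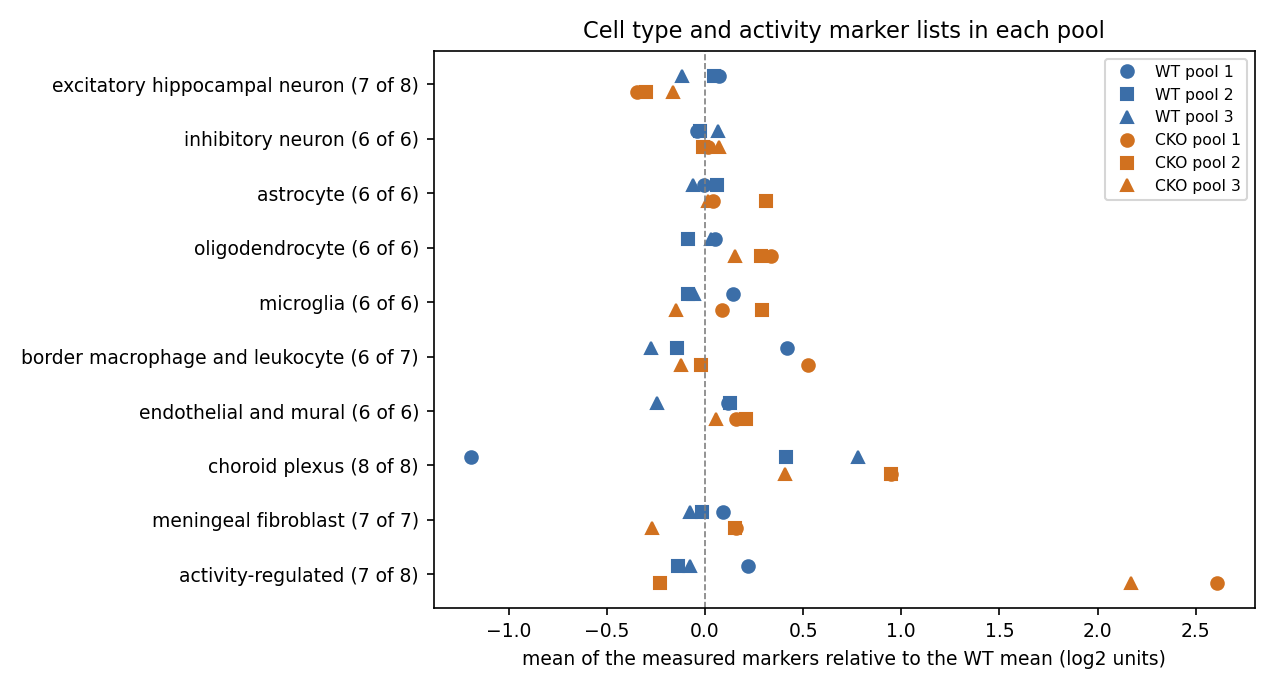
Mean of each marker list relative to its WT mean (horizontal axis, log2 units) in WT (blue) and CKO (orange) pools, with circles, squares and triangles for pools 1, 2 and 3 and the measured of listed genes in brackets. The choroid plexus list is low in WT pool 1 (-1.19), and the activity-regulated list is high in CKO pools 1 and 3 (2.61 and 2.17).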

How the data were processed

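Each array was deposited as output of Agilent Feature Extraction, version 11.5 by the submitters' processing notes. The file headers give version 11.5.1.1 and describe the processed signal, an intensity of the red channel, as background-subtracted and detrended within the array, with surrogates at low values. Other deposited columns were flags and raw intensity. The authors' value table holds intensity values, with the between-array step not given in the sources used here. Their order matches the background-subtracted signal (Spearman's rho 1 on each array), with array medians from 651.7 to 944.0 and 4342 to 5314 empty spots.

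Each processed signal was taken to log2 and set against the 75th percentile of its array. Outlier spots were left out, spots of a probe and arrays of a pool were averaged, and each gene was read by its brightest probe. Of 39429 probes, 27508 took their gene from a RefSeq accession, 3544 from a symbol and 404 from a synonym, with 7973 left under the file's name; 23648 passed the background filter. Genotypes were compared with limma 3.58.1 in R 4.3.3 (lmFit, eBayes with trend, two-sided, Benjamini-Hochberg over all genes), which was tested on simulated data. p-values measure the spread between 3 pools a genotype. The labels match same-numbered pools in sex and age, which is the ground for the block. Deviations of same-numbered pools from their genotype means correlated at 0.55, 0.33 and 0.13 for pools 1, 2 and 3. Pools of unlike number correlated at -0.48 to 0.12. The value for pool 3 was thus close to the highest of unlike pools, and the correlations do not show that pool 3 is paired.

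The 9 genes, lists and tests were chosen with earlier results of these data known. The named genes are the 9, the 3 of smallest unadjusted p in each list, and those of most similar profile (5 for Plaur, 2 for others); others were named for their role. A gene of the inhibitor list is not reported here and is left out of the list counts. Alternatives changed the block, background correction, scaling, filter, probe rule, slides, arrays, weights and pools.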

Additional observations from a re-analysis of the deposited data

How the results depend on the processing

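Over the alternatives run, Plaur (20 of 20), Plat (20 of 20), Serpinf2 (19 of 19, as the filter on all arrays leaves it out) and Serpini1 (20 of 20) kept their direction, with ranges of 1.099 to 1.59, 0.03 to 0.58, 0.90 to 1.91 and -0.16 to -0.0049; Serpine2 and Serpinf1 did in 17 of 20. With 1 pool left out Plaur ran from 1.099 to 1.59 and Serpinf2 from 1.30 to 1.64. The 5 genes past the limma threshold became 103 with the replicate block, 0 within slide 2, 124 with first arrays alone, 108 without the second array of WT pool 1, 3180 with array weights (which gave WT pool 3 a weight of 4.32 and WT pool 1 one of 0.157), 3 in the authors' value table, and 0 to 21 with 1 pool left out: 21 without WT pool 1, 2 without CKO pool 1, and 0 without WT pool 3 or CKO pool 3. Plaur and Serpinf2 passed with the block, with first arrays alone, without the second array of WT pool 1 and with array weights, and in no other alternative. Both genes were selected on these differences, so these calls are no support for them. Of the 63 pathway genes 1 passed with the block (Timp1), 1 with first arrays alone and 1 without the second WT pool 1 array (Lypd1 in both), 16 with array weights, and 0 in the others. The count of higher genes among the 6 was 3 within slide 2 and 3 to 5 with 1 pool left out. The cause of these changes was not tested. Among the genes named, the block changed the call of Plaur, Serpinf2, Timp1, Ctcf, Ccl2, Cd14 and Mettl25, and of no other. Signal near background limits Serpinf2, Plau, Plg and Serpinb2.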

Other observations

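Itgb1, the beta1 integrin gene and a binding partner of the urokinase receptor, was singled out after its values were seen. Its brighter probe stood between -0.93 and -0.64 in 5 pools and at -4.47 in CKO pool 2, which was read on 1 array. Its dimmer probe stood at -3.70 in CKO pool 2, between -3.92 and -3.64 in the other CKO pools, and between -4.24 and -3.99 in WT pools. Without CKO pool 2 the brighter probe differed by 0.16 and the dimmer one by 0.33, against -1.11 for the brighter probe over all pools.

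Klk6, the gene of a serine protease of myelinating cells, also varied more between pools than between genotypes. It stood at -1.77, -3.02 and -1.54 in WT pools 1, 2 and 3 and at -2.05, -0.43 and -2.69 in CKO pools, so that pool 2 was the lowest in WT and the highest in CKO. The difference was 0.38 (SE 0.58).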
